A study of Danio rerio with 34 samples.

Results

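The Hox cluster genes were followed here in 3 sorted cell populations of the zebrafish trunk, in *dnmt1* mutants and in their siblings. The genes were chosen by name alone, as every entry of the count table whose symbol names a gene of the *hoxa*, *hoxb*, *hoxc* or *hoxd* clusters, which gave 49 of 47048 genes. They fall into 7 clusters, with 7 genes in *hoxaa*, 5 in *hoxab*, 11 in *hoxba*, 4 in *hoxbb*, 11 in *hoxca*, 4 in *hoxcb* and 7 in *hoxda*. By paralog group, the number that gives a gene's place in its cluster, 10 genes belonged to groups 1 to 3, 16 to groups 4 to 8 and 23 to groups 9 to 13.

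Hox genes encode homeodomain transcription factors that give cells their position along the body axis. Genes at the low-numbered end of a cluster are switched on early and reach far towards the head, whereas genes at the high-numbered end are active late and mark the posterior trunk, the tail and the distal fins. Nearly every tissue of the trunk uses them, among them neural tube, somites, lateral mesoderm and kidney, and in mammals several Hox genes also act in blood stem cells and in leukaemia.

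RNA was sequenced in 16 libraries, made from equal numbers of cells sorted from the trunk at 36 hpf as endothelium (ECs), hemogenic endothelium (HECs) or hematopoietic stem and progenitor cells (HSPCs). All embryos carried the reporters of the line Tg(*kdrl*:mCherry/*runx1*:en-GFP), in which endothelium and cells with *runx1* enhancer activity fluoresce. Mutants had the *dnmt1* s872 allele in every cell, and the labels do not say which *dnmt1* genotypes the siblings had. There were 3 mutant and 3 sibling libraries of ECs and of HECs, numbered 1 to 3, and 2 mutant and 2 sibling libraries of HSPCs, numbered 2 and 3. The study's methods speak of independent biological repeats in general, but neither they nor the labels say which embryos or sorts these libraries came from, so *P*-values measure the spread between libraries, which may in part be technical. The genotype of a library was read from the name of its column. A second label field gives the other genotype for the same libraries, and should it be the correct one, all mutant and sibling directions given here turn round.

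Counts on genes ranged from 3125048 to 13201410 per library, and the deepest 4 libraries were the HECs and HSPCs numbered 3. A transcript count of *dnmt1* does not check the genotype, since the allele need not alter the amount of the mRNA. The endothelial marker list summed to between 4093 and 7224 counts per 1000000 (CPM) in EC libraries and to between 1611 and 2439 CPM in HECs. In HSPC libraries it summed to between 25.4 and 59.9 CPM, where the hemogenic and HSPC list summed to between 688 and 2772 CPM, against between 1886 and 7366 CPM in HECs and between 506 and 1620 CPM in ECs. Of the defining blood stem cell genes, *myb* had 12.7 and 15.3 CPM in mutant and 16.4 and 11.5 CPM in sibling HSPCs, and between 55.95 and 150.3 CPM in HECs. *gata2b*, which acts in hemogenic endothelium, lay at or below 1.97 CPM in all 4 HSPC libraries. The HSPC libraries instead held high sums of erythroid genes (29964 to 135840 CPM) and of neural tube and neuron genes (897 to 1968 CPM). The erythroid list summed to between 2659 and 12650.5 CPM in HECs and to at most 1808 CPM in ECs. The neural list summed to between 224 and 653 CPM in ECs and to between 12.5 and 496 CPM in HECs. Both HSPC libraries numbered 3 also held somite and muscle genes at 16211 CPM in the mutant and 21205 CPM in the sibling, against 436 CPM in the mutant and 5.77 CPM in the sibling library numbered 2. The mutant HEC library numbered 1 stood apart in the same list, with 4718 CPM against between 6.22 and 182 CPM in the other HEC libraries. The label HSPC is therefore kept only as a name for that sort. In such pooled libraries, fewer cells of a type and less RNA per cell cannot be told apart.

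All 13 paralog groups were represented in every cell type and both genotypes. A gene was called detected in a group when at least 10 counts were found in at least 2 of its libraries. By this rule 41 of 49 Hox genes were detected in mutant ECs and 37 in sibling ECs, 41 in mutant HECs and 40 in sibling HECs, and 33 in mutant HSPCs and 35 in sibling HSPCs. Detection per group was counted for the Hox genes alone, so these counts cannot be set against a share over all genes. Both libraries of an HSPC group had to pass, whereas 2 of 3 sufficed in the other groups. When the rule asked for every library of a group, the counts were 32 and 31 in mutant and sibling ECs, 33 and 30 in mutant and sibling HECs, and again 33 and 35 in mutant and sibling HSPCs. The lower count in HSPCs was not seen under this rule, which asked for 3 libraries in ECs and HECs and for 2 in HSPCs. HSPC counts could not change under it, and neither rule treats groups of 2 and 3 libraries alike. After all counts were scaled down to the shallowest library, 39 and 36 genes were detected in mutant and sibling ECs, 37 and 36 in HECs, and 33 and 33 in HSPCs.

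**Figure D1:**
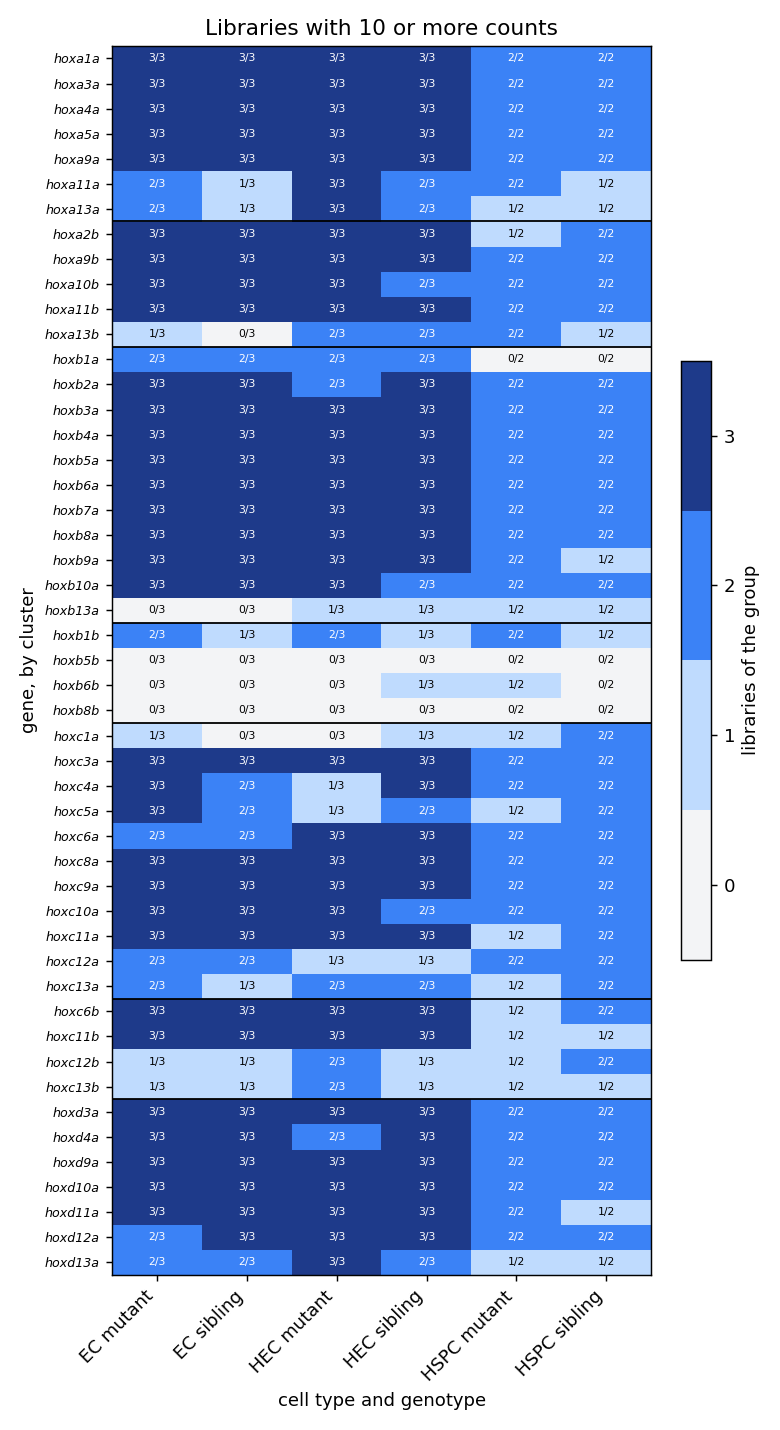
Number of libraries with 10 or more counts for each of the 49 Hox genes (rows, ordered by cluster and paralog group, black lines between clusters) in each cell type and genotype (columns). Each cell gives the libraries that passed over the libraries of the group, and darker blue stands for more libraries. *hoxb5b*, *hoxb8b*, *hoxb6b*, *hoxb13a* and *hoxc1a* were the palest, with 0, 0, 2, 4 and 5 of the 16 libraries passing.

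A core of 26 genes was detected in all 6 groups. It held every measured gene of paralog group 3, whose members pattern the hindbrain and pharyngeal arches (*hoxa3a*, *hoxb3a*, *hoxc3a* and *hoxd3a*), and *hoxb7a*, the only member of group 7. Its posterior genes included *hoxa11b*, *hoxb10a*, *hoxc10a* and *hoxd12a*. At the other extreme, 4 genes were detected in no group, namely *hoxb5b*, *hoxb6b*, *hoxb8b* and *hoxb13a*. The first 3 are trunk genes of *hoxbb*, and their highest count in any library was 7 for *hoxb5b*, 26 for *hoxb6b* and 8 for *hoxb8b*. *hoxb13a*, a tail gene at the posterior end of *hoxba*, was different, with 494 counts in the mutant and 467 counts in the sibling HSPC library numbered 3 and 0 counts in the mutant and 0 in the sibling library numbered 2. It had 0 counts in all 6 EC libraries and at most 35 counts in any HEC library. Over all 16 libraries, ignoring groups, 47 of 49 genes passed (all genes, 22625 of 47048), and *hoxb5b* and *hoxb8b* did not.

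By cluster, *hoxda* was detected in full, 7 of 7 genes, in mutant and sibling ECs and HECs. *hoxd13a* was not detected in mutant HSPCs, and *hoxd11a* and *hoxd13a* were not detected in sibling HSPCs. *hoxba* had 10 of 11 genes in each EC and HEC group, 9 in mutant HSPCs and 8 in sibling HSPCs. *hoxca* ranged from 7 of 11 in mutant HECs and mutant HSPCs to 11 of 11 in sibling HSPCs. *hoxcb*, a small cluster of posterior genes and *hoxc6b*, ranged from 0 of 4 in mutant HSPCs to 4 of 4 in mutant HECs. Paralog group 13, whose genes are used in the tail and the distal fin, had 5 members detected in mutant HECs and 4 in sibling HECs. In ECs it had 3 in mutants and 1 in siblings, and in HSPCs 1 in either genotype. The undetected HSPC genes of *hoxda*, *hoxcb* and group 13 failed in the library numbered 2 alone, where both libraries had to pass. In mutant HSPCs numbered 2 and 3, *hoxc6b* had 7 and 665 counts, *hoxc13b* 0 and 859, and *hoxc13a* 9 and 1844.

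Some genes were detected in 1 genotype and not in the other. How many of all genes were so in these libraries was not counted, so no excess in either genotype can be read from these numbers. In ECs, 4 genes were detected in mutants alone (*hoxa11a*, *hoxa13a*, *hoxb1b* and *hoxc13a*) and 0 in siblings alone. In HECs, *hoxb1b*, *hoxc12b* and *hoxc13b* were detected in mutants alone, and *hoxc4a* and *hoxc5a* in siblings alone. In HSPCs, 5 genes were detected in mutants alone and 7 in siblings alone. *hoxb1b*, which works with *hoxb1a* in the early hindbrain, was the one gene detected in mutants and not in siblings of all 3 cell types. Its counts were 12, 9 and 102 in mutant ECs against 3, 2 and 61 in sibling ECs. In HECs they were 24, 1 and 33 in mutants against 3, 1 and 46 in siblings, and in HSPCs 13 and 186 in mutants against 6 and 208 in siblings. The genotypes overlapped in each cell type, and the difference in detection rested on libraries with fewer than 25 counts. *hoxc1a*, a gene of the C cluster that mammals have lost, was detected in sibling HSPCs alone, where it had 69 and 107 counts against 6 and 264 counts in mutant HSPCs.

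The level of the Hox genes followed the library number in ECs and HSPCs. Summed over the 49 genes, mutant ECs numbered 1, 2 and 3 held 1050.1, 898 and 2608 CPM and sibling ECs 823, 698 and 2269 CPM. HSPCs numbered 2 and 3 held 503 and 2385 CPM in mutants and 579.7 and 2352 CPM in siblings. In HECs the sums were 809.8, 651 and 662 CPM in mutants and 669, 708 and 626 CPM in siblings. Libraries numbered 3 were thus the highest of their group in ECs and HSPCs of both genotypes, and not in HECs. CPM was computed on library sizes scaled by TMM, with no correction for gene length, so sums are compared between libraries and not between genes.

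**Figure D2:**
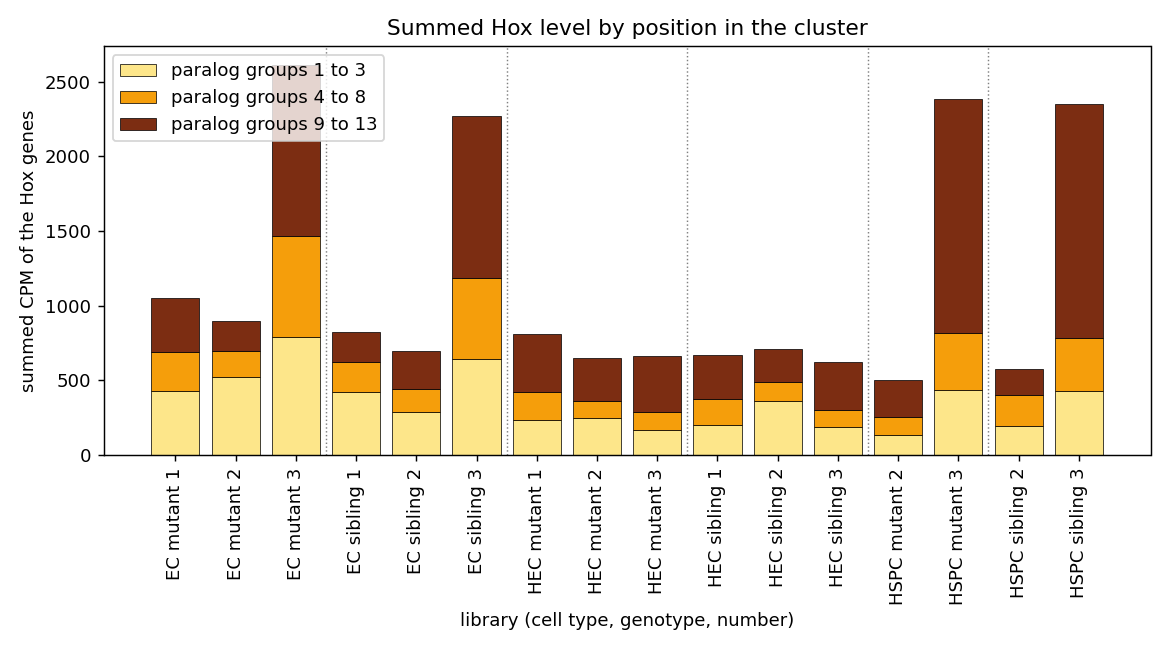
Summed CPM of the Hox genes in each library (bars from 0), stacked by paralog groups 1 to 3, 4 to 8 and 9 to 13, with mutant libraries left of sibling libraries within each cell type. Libraries numbered 3 stood out in ECs (2608 and 2269 CPM) and HSPCs (2385 and 2352 CPM), and genes of groups 9 to 13 formed most of that gain in HSPCs.

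Of the 46 Hox genes that passed the filter on low counts, 30 were highest in the library numbered 3 in both EC genotypes, against 15% of all 21161 tested genes. In HSPCs the number was 39 of 46, against 40.8% of all genes, and in HECs it was 11 of 46, against 19%. All 23 genes of groups 9 to 13 were highest in the library numbered 3 in both HSPC genotypes, as were 8 of 13 genes of groups 4 to 8 and 8 of 10 of groups 1 to 3. In both EC genotypes the counts were 18 of 23, 8 of 13 and 4 of 10 in the same order of groups. In HECs, 10 of the 11 such genes belonged to groups 9 to 13. The median difference between the library numbered 3 and the mean of the other libraries of its group, on log2(CPM + 1), was 1.67 in mutant ECs and 1.74 in sibling ECs over the tested Hox genes. It was 2.04 in mutant and 2.15 in sibling HSPCs, and 0.08 in mutant and -0.17 in sibling HECs. Over all tested genes it lay between -0.14 and 0.23 in the 6 groups.

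Single genes showed the same split. *hoxc3a* had 23.4, 39.8 and 234 CPM in mutant ECs numbered 1 to 3 and 18.6, 28.5 and 209 CPM in sibling ECs. *hoxc6b* had 27.0, 10.7 and 150.3 CPM in mutant ECs and 17.2, 18.6 and 157 CPM in sibling ECs. In both genes the libraries numbered 3 lay far above the others, and mutant and sibling libraries of the same number lay close together. *hoxc13a*, a posterior gene active in the tail bud and fin fold, had 1.97 and 134 CPM in mutant HSPCs numbered 2 and 3 and 4.33 and 148 CPM in sibling HSPCs. *hoxd12a* had 5.9 and 81.0 CPM in mutant HSPCs and 2.88 and 65.3 CPM in sibling HSPCs. Some anterior and middle genes went the other way. *hoxa1a* and *hoxa3a* were lowest in the library numbered 3 in both EC genotypes (all genes, 17%), and *hoxb5a*, *hoxc4a* and *hoxc5a* were lower in the HSPC library numbered 3 in both genotypes (all genes, 23.5%).

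**Figure D3:**
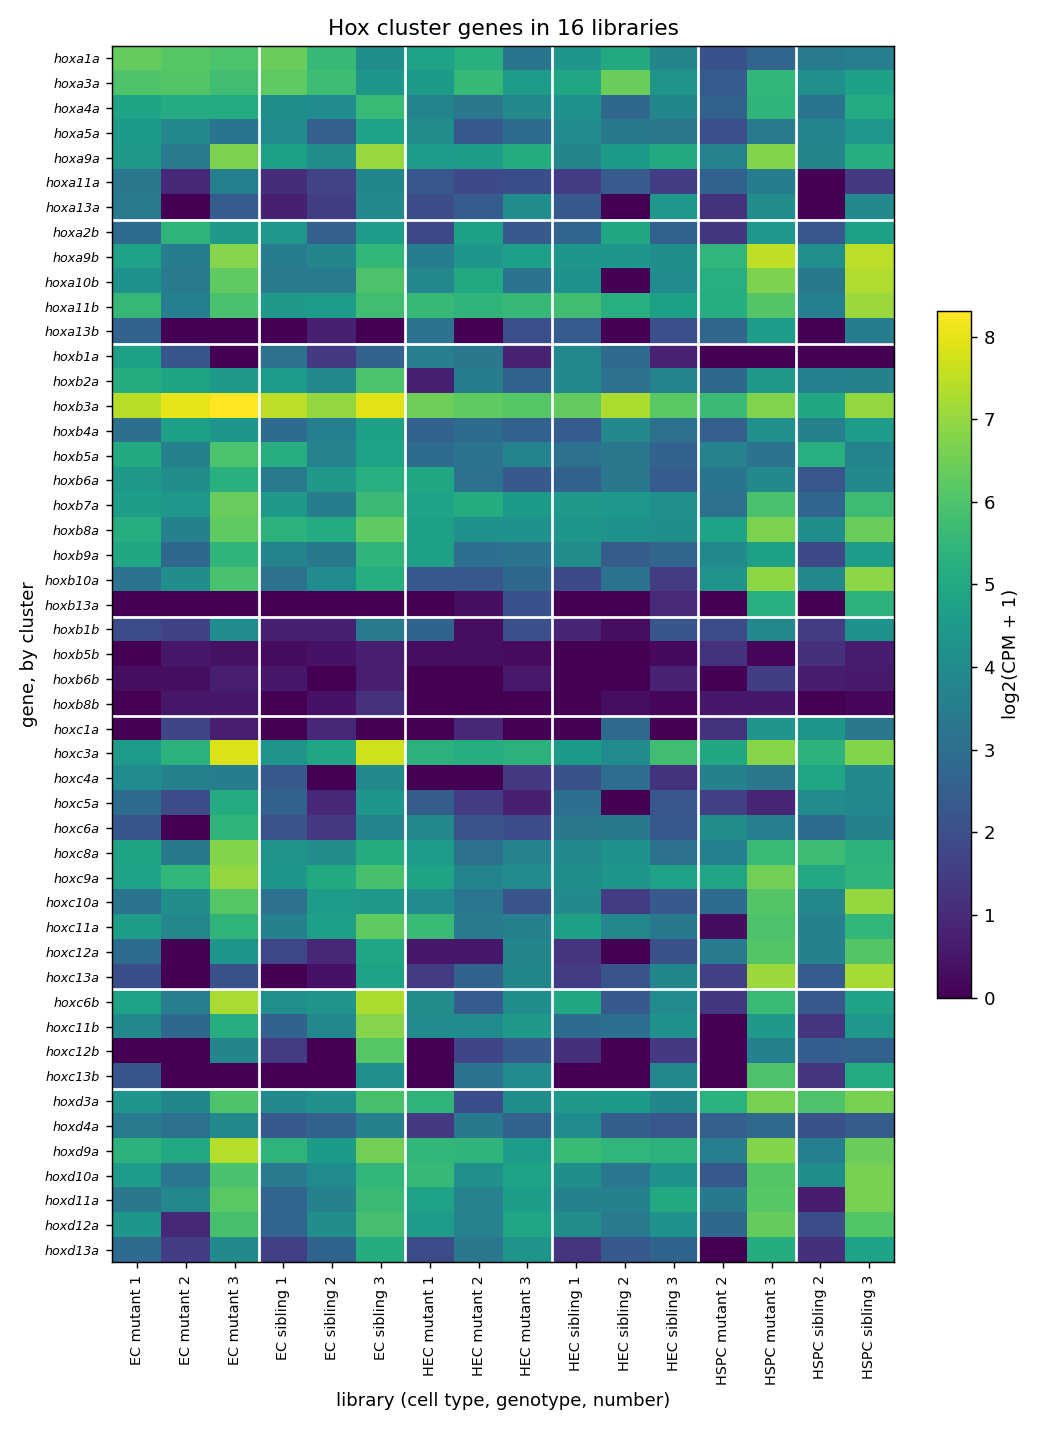
Level of each of the 49 Hox genes as log2(CPM + 1) (colour, yellow high) in the 16 libraries (columns, mutants left of siblings within each cell type), with white lines between clusters and groups. The yellow columns of posterior genes in the HSPC libraries numbered 3 show the split by library described in the text, and *hoxb1a* was dark in all 4 HSPC libraries.

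Some marker lists of other tissues were also higher in the libraries numbered 3 and others lower, and their part in the Hox levels was not tested. In ECs, the fin mesenchyme and lateral plate list summed to 621 CPM in the mutant and 216 CPM in the sibling library numbered 3, against 95.8 and 110.9 CPM in the other mutant libraries and 103 and 110.3 CPM in the other sibling libraries. Its genes *twist1a* and *prrx1a* had 396 and 61.7 CPM in the mutant EC library numbered 3, and *tbx5a*, a fin bud gene, was at 0 in all EC libraries. In HSPCs, besides the muscle genes, the pronephros list summed to 307 CPM in the mutant and 479 CPM in the sibling library numbered 3, against 45.2 CPM in the mutant and 76.1 CPM in the sibling library numbered 2. Erythroid genes were lower in the HSPC library numbered 3 (29964 CPM in the mutant and 30361 CPM in the sibling, against 43670 CPM in the mutant and 135840 CPM in the sibling library numbered 2). The epidermis list was lowest in the EC library numbered 3 of both genotypes (47.2 CPM in the mutant and 2.21 CPM in the sibling). The fin mesenchyme and lateral plate list stayed at or below 17.5 CPM in all 6 HEC libraries.

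The first comparison between cell types asked how Hox levels differ between HECs and the ECs they arise from. With all libraries, 39 of 46 Hox genes had a lower fitted level in mutant HECs than in mutant ECs (all tested genes, 49.8%), with a median log2 fold change of -1.01. In siblings 38 of 46 were lower in HECs (all tested genes, 46%), with a median of -0.82. Without the mutant HEC library numbered 1, the count in mutants was 40 of 46 and the median -1.23. A gene was called where its adjusted *P*-value in the edgeR quasi-likelihood test was under 0.05 and its log2 fold change was 1 or more in size. The test called 0 Hox genes in either genotype, against 0.00473% of all genes in mutants and 0.0189% in siblings. At an unadjusted *P*-value under 0.05, 9 Hox genes were lower and 0 higher in mutant HECs, and 3 were lower and 0 higher in sibling HECs, where 8.19% of all genes were lower and 7.13% higher in mutants and 6.91% lower and 7.38% higher in siblings. DESeq2 called 4 Hox genes, all lower in mutant HECs (*hoxb2a*, *hoxb3a*, *hoxb5a* and *hoxc4a*), against 3.84% of all genes in mutants, and it called 0 in siblings, against 3.51%. At the study's own limit, an adjusted *P*-value under 0.5, DESeq2 called 18 Hox genes in mutants (18.3% of all genes) and 14 in siblings (16.8%).

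With the library number as a block, a lean towards lower levels in HECs was also seen. That block gave each number 1 effect shared by all cell types. It could therefore not remove a difference of the libraries numbered 3 that was seen in ECs and not in HECs. In that fit 32 of 46 Hox genes were lower in mutant HECs (all genes, 50.2%), with a median of -0.76. In siblings 36 of 46 were lower (all genes, 46.9%), with a median of -0.73. The lean shrank when the libraries numbered 3 were left out. Without them, in a fit added after the data were seen, 26 of 45 Hox genes were lower in mutant HECs (all genes, 51.8%), with a median of -0.16, and 23 of 45 in sibling HECs (all genes, 48.3%), with a median of -0.09. Of the 23 tested genes of groups 1 to 8, all 23 were lower in mutant HECs with all libraries, and 18 of 23 were lower without the libraries numbered 3. In sibling HECs 19 of 23 were lower with all libraries and 12 of 23 without. Of the genes of groups 9 to 13, 16 of 23 were lower in mutant HECs with all libraries and 8 of 22 without, and in sibling HECs 19 of 23 with all libraries and 11 of 22 without.

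*hoxb3a*, which patterns the caudal hindbrain, had 88.7, 76.9 and 68.0 CPM in mutant HECs, against 171, 255 and 317 CPM in mutant ECs. Every mutant HEC library lay below every mutant EC library, with a log2 fold change of -1.67 (SE 0.51, adjusted *P*=0.185 by edgeR and 0.0316 by DESeq2). Sibling HECs had 77.9, 154.8 and 71.1 CPM and sibling ECs 178, 123 and 243 CPM, which overlapped. *hoxc4a*, the *hoxca* member of a group whose mammalian B-cluster gene expands blood stem cells in culture, had 0, 0 and 1.61 CPM in mutant HECs against 15.6, 11.6 and 10.3 CPM in mutant ECs. The mutant HEC libraries again lay below all mutant EC libraries (log2 fold change -4.32, SE 1.504, adjusted *P*=0.217 by edgeR and 0.0187 by DESeq2). In siblings the 3.19, 6.77 and 1.34 CPM of HECs lay within the spread of 4.03, 0 and 14.2 CPM in ECs.

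*hoxb5a*, used in the trunk neural tube and lateral mesoderm, had 6.75, 8.06 and 12.1 CPM in mutant HECs against 32.8, 11.6 and 60.7 CPM in mutant ECs (log2 fold change -1.96, SE 0.66, adjusted *P*=0.213). In siblings it had 7.82, 9.03 and 5.06 CPM in HECs against 35.3, 11.9 and 26.4 CPM in ECs (log2 fold change -1.75, SE 0.66, adjusted *P*=0.261). All sibling HECs lay below all sibling ECs, whereas one mutant HEC library exceeded one mutant EC library. Its neighbour *hoxb6a* had 4.92, 8.78 and 4.35 CPM in sibling HECs against 9.62, 21.8 and 37.3 CPM in sibling ECs, without overlap. Across the tested Hox genes, every mutant HEC library lay below every mutant EC library for 8 of 46 genes (all genes, 11.4%), and every sibling HEC library below every sibling EC library for 3 of 46 (all genes, 8.68%).

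The second comparison set HSPCs against HECs. With all libraries, 38 of 46 Hox genes were fitted higher in mutant HSPCs than in mutant HECs (all tested genes, 53%), with a median log2 fold change of 0.99. In siblings 37 of 46 were higher in HSPCs (all tested genes, 50.5%), with a median of 1.04. The edgeR test called 0 Hox genes in either genotype, against 2.07% of all genes in mutants and 1.39% in siblings. At an unadjusted *P*-value under 0.05, 5 were higher and 2 lower in mutant HSPCs (all genes, 11.4% and 7.13%), and 6 were higher and 1 lower in sibling HSPCs (all genes, 10.2% and 7.25%). DESeq2 called 4 Hox genes in mutants (5.86% of all genes) and 3 in siblings (4.72%), and at the limit of 0.5 it called 14 in mutants (21.3%) and 14 in siblings (19.5%). With the library number as a block, again 1 effect shared by all cell types, the medians were 0.12 in mutants and 0.59 in siblings. Without the libraries numbered 3 the direction turned in mutants, with 30 of 45 genes lower in mutant HSPCs (all genes, 48.6%). In sibling HSPCs 25 of 45 were lower, near the share of all genes (52.1%). The medians were then -0.71 in mutants and -0.38 in siblings. Each HSPC group then held 1 library, which was assumed to vary like the other groups.

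*hoxb10a*, a posterior B-cluster gene that mammals lack, had 18.6 and 118 CPM in mutant HSPCs against 4.05, 3.91 and 5.77 CPM in mutant HECs. In siblings the HSPCs had 13.6 and 115 CPM and the HECs 2.61, 8.03 and 1.74 CPM. Every HSPC library exceeded every HEC library in both genotypes, those numbered 2 by far less than those numbered 3. Such a separation was seen for 8 of 46 Hox genes in mutants (all genes, 21.8%) and for 10 of 46 in siblings (all genes, 19%). The log2 fold change was 3.89 in mutants (SE 1.09, adjusted *P*=0.0817 by edgeR and 0.00532 by DESeq2) and 3.98 in siblings (SE 1.099, adjusted *P*=0.0938 by edgeR and 0.00604 by DESeq2). *hoxc4a* had 11.6 and 9.15 CPM in mutant HSPCs and 29.1 and 14.8 CPM in sibling HSPCs, above all HEC libraries of the same genotype, and was called by DESeq2 in mutants alone. *hoxc10a* had 13.6 and 128 CPM in sibling HSPCs against 14.8, 1.76 and 4.03 CPM in sibling HECs, so the library numbered 2 lay inside the spread of HECs.

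The third comparison set HSPCs against ECs. With all libraries it had no common direction over the Hox genes, with medians of 0.02 in mutants and 0.06 in siblings, and the count differed by position. In groups 1 to 3, 7 of 10 genes were lower in mutant HSPCs and 7 of 10 in sibling HSPCs, and in groups 9 to 13, 19 of 23 were higher in mutant and 16 of 23 in sibling HSPCs. Of all genes, 44.1% were lower and 55.9% higher in mutants and 44.8% lower and 55.2% higher in siblings. Without the libraries numbered 3, which left 1 library in each HSPC group, the medians over the Hox genes were -0.90 in mutants and -0.63 in siblings. In that fit, 7 of 10 genes of groups 1 to 3 were lower in mutants and 6 of 10 in siblings. Of the genes of groups 9 to 13, 13 of 22 were lower in mutants and 14 of 22 in siblings, against 49% of all genes in mutants and 50.8% in siblings. Of the genes of groups 4 to 8, 12 of 13 were lower in mutant HSPCs with all libraries and 11 of 13 without those numbered 3. In sibling HSPCs 5 of 13 were lower with all libraries and 6 of 13 without, and the difference between the genotypes in these counts was not tested.

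*hoxa1a*, the *hoxaa* member of the most anterior paralog group, was the one Hox gene that passed the edgeR test in any comparison. It had 3.28 and 5.59 CPM in mutant HSPCs, 26.8, 38.0 and 8.43 CPM in mutant HECs and 80.9, 70.9 and 61.7 CPM in mutant ECs. In siblings, the HSPCs had 10.1 and 10.8 CPM, the HECs 19.98, 31.9 and 12.7 CPM and the ECs 86.1, 46.2 and 16.6 CPM. Every HSPC library lay below every HEC and EC library of its genotype, and mutant HECs also lay below all mutant ECs. HSPCs lay wholly below HECs for 2 of 46 Hox genes in mutants (all genes, 17.1%) and 3 of 46 in siblings (all genes, 14.9%). They lay wholly below ECs for 7 of 46 in mutants (all genes, 15%) and 3 of 46 in siblings (all genes, 14.9%). *hoxa1a* fell in mutant HSPCs relative to mutant ECs, with a log2 fold change of -3.98 (SE 0.81, adjusted *P*=0.0129), where 3.51% of all genes were called. DESeq2 called *hoxa1a* and *hoxb1a* in both genotypes, where it called 6.21% of all genes in mutants and 7.95% in siblings, and at the limit of 0.5 it called 7 Hox genes in mutants (20.1%) and 17 in siblings (24.7%). In siblings the log2 fold change was -2.25 (SE 0.74, adjusted *P*=0.098 by edgeR and 0.0309 by DESeq2), where 5.38% of all genes were called. The 2 log2 fold changes were not shown to differ, with a difference of -1.74 (SE 0.97) and an adjusted *P*-value of 1. Without the libraries numbered 3 the value in mutants was -4.54 (adjusted *P*=0.0248), and the call was lost when either mutant HSPC library alone was left out (adjusted *P*=0.13 without number 2 and 0.0868 without number 3). With the library number as a block, *hoxa1a* was again the one Hox gene called (log2 fold change -3.66, adjusted *P*=0.00978). That fit called 6.12% of all genes in mutant and 8.04% in sibling HSPCs against ECs, 3.84% in mutant and 2.78% in sibling HSPCs against HECs, and 0.794% in mutant and 0.936% in sibling HECs against ECs.

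**Figure D4:**
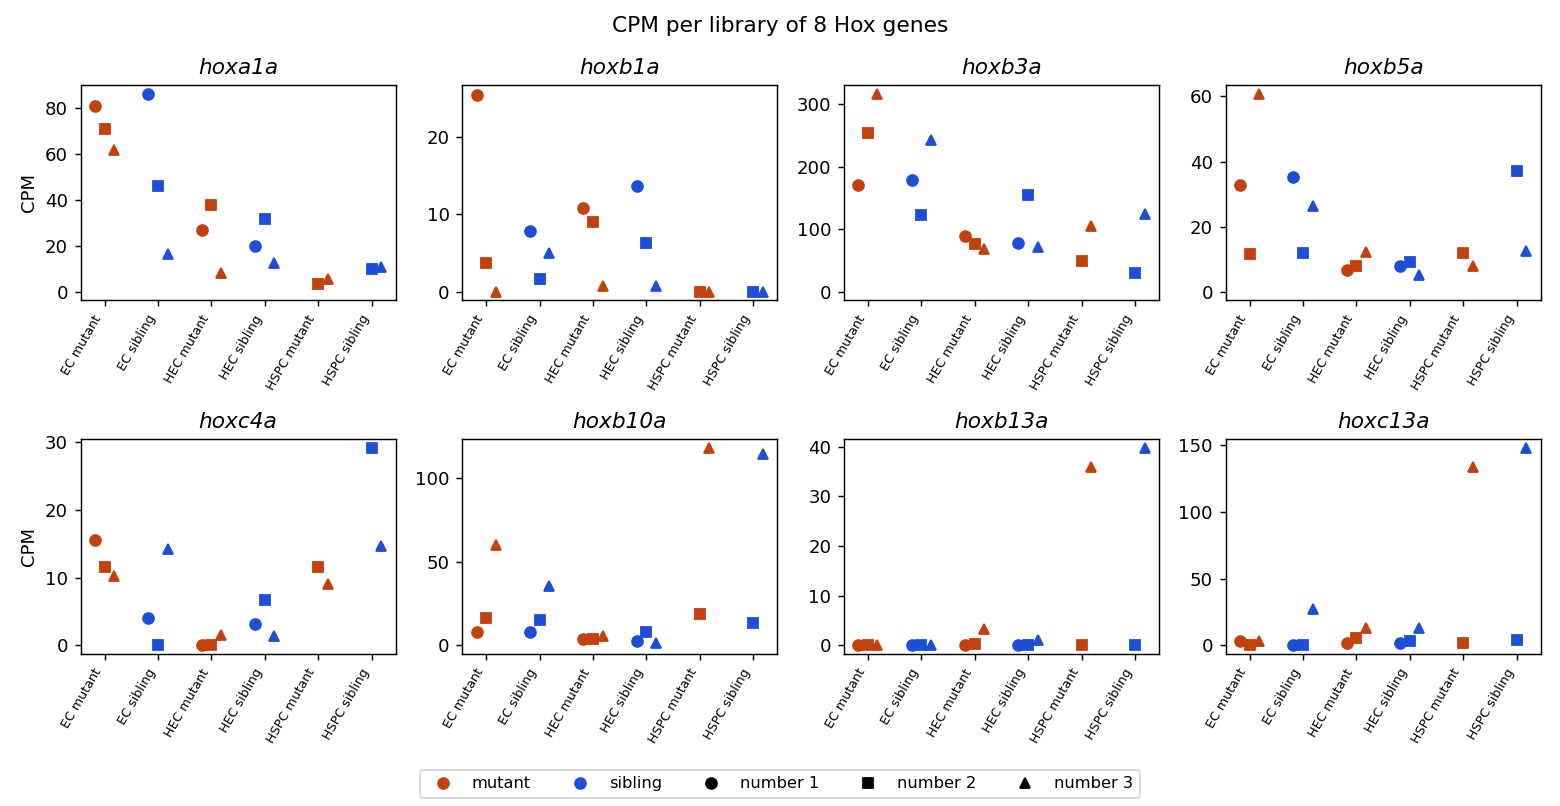
CPM of 8 Hox genes in every library, with mutants in orange left of siblings in blue and the marker shape giving the library number. *hoxa1a* was low in both HSPC groups, *hoxb1a* was at 0 there, and *hoxb10a*, *hoxb13a* and *hoxc13a* were highest in the HSPC libraries numbered 3 (118, 35.9 and 134 CPM in mutants).

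*hoxb1a*, which sets the identity of a hindbrain segment, had 0 counts in all 4 HSPC libraries. It had 111, 16 and 0 counts in mutant ECs and 35, 5 and 32 in sibling ECs, and 48, 39 and 8 counts in mutant HECs and 47, 25 and 9 in sibling HECs. Against a limit of 3 counts over both HSPC libraries of a genotype, pooled *hoxb1a* was at least 51.0-fold lower in mutant HSPCs than in mutant ECs and at least 26.3-fold lower in sibling HSPCs than in sibling ECs. Most of the mutant EC counts came from the library numbered 1, and without it the bound was 8.99-fold. Without sibling EC number 1 it was 19.9-fold. Against HECs it was at least 30.0-fold lower in mutant and 20.5-fold lower in sibling HSPCs, and leaving out 1 HEC library at a time, in an alternative added after the data were seen, gave bounds from 19.3 in mutants and from 10.4 in siblings. These bounds cover counting error only. The edgeR test gave adjusted *P*-values of 0.125 in mutants and 0.144 in siblings for HSPCs against ECs, whereas DESeq2 called the gene against ECs and HECs in both genotypes (adjusted *P* between 0.00412 and 0.0179).

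Between mutants and siblings, no Hox gene passed the test in any cell type. The edgeR test called 0 of 46 Hox genes and 0 of 21161 genes (0%) in ECs, in HECs and in HSPCs. In this fit, which had no block, 0 Hox genes had an unadjusted *P*-value under 0.05. Of all genes, 1.93% were higher and 1.28% lower at that unadjusted level in ECs, 0.983% higher and 1.72% lower in HECs, and 1.07% higher and 0.851% lower in HSPCs. DESeq2 called 0 Hox genes too, against 0.113% of all genes in ECs, 0.0917% in HECs and 0.147% in HSPCs. At an unadjusted *P*-value under 0.05 it gave 0 in ECs and 1 lower in HECs (492 of 32705 genes). In HSPCs it gave 1 higher and 1 lower (332 and 278 of 32705 genes). With the library number as a block, edgeR gave 0 in ECs and HECs, and 1 higher and 2 lower in HSPCs (323 and 259 of 21161 genes). In the edgeR fit without a block, the median log2 fold change over the Hox genes was 0.33 in ECs, 0.18 in HECs and 0.04 in HSPCs. In it 32, 29 and 23 of 46 genes were higher in mutants, against 49.9%, 46.4% and 49.9% of all genes. Without the mutant HEC library numbered 1 the median in HECs was -0.03 and 22 of 46 genes were higher. The median in ECs was 1.28 without the sibling library numbered 3 and -0.29 without the mutant library numbered 3. In HSPCs it was 1.60 without the sibling and -1.85 without the mutant library numbered 3, with 1 library left in that group. The direction in ECs and HSPCs thus turned when 1 library numbered 3 was left out and that of the other genotype kept. With the library number as a block, the median was 0.31 in ECs, with 31 of 46 genes higher (11294 of 21161 genes). In HSPCs it was -0.08, with 22 of 46 higher (11048 of 21161 genes). Without all libraries numbered 3 it was 0.42 in ECs, with 37 of 45 higher (10109 of 21144 genes). In HSPCs, with 1 library left in each group, it was -0.47. Between libraries of the same number, 8 of 46 Hox genes were higher in the mutant library of all 3 EC pairs (all genes, 11.5%) and 8 of 46 in all 3 HEC pairs (all genes, 9.39%). In 2 of 46 the mutant library was the lower one of all EC pairs (all genes, 9.95%), and in 2 of 46 of all HEC pairs (all genes, 9.29%). *hoxb7a*, named after its values were seen, was higher in the mutant library of every pair of all 3 cell types. The share of all genes with that pattern was not counted. In HSPCs, 11 of 46 were higher (all genes, 24.1%) and 12 of 46 lower (all genes, 21.1%) in the mutant library of both pairs.

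**Figure D5:**
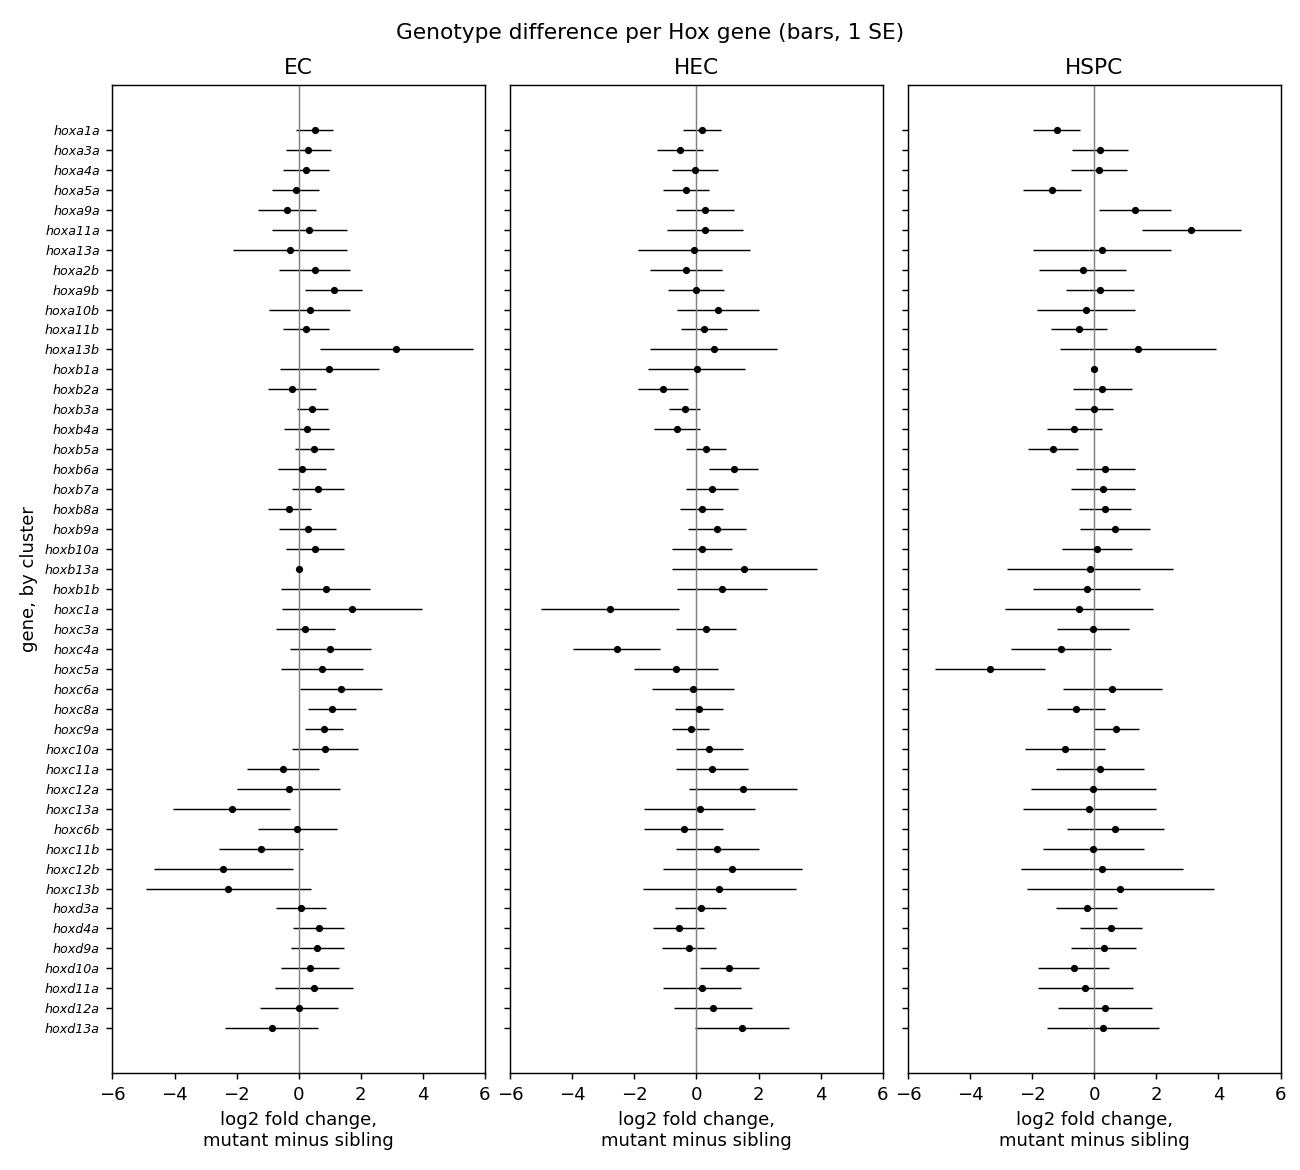
Log2 fold change of each tested Hox gene between mutants and siblings (points, with bars of 1 SE) in ECs, HECs and HSPCs, genes ordered by cluster. Points right of 0 are higher in mutants, values lay between -3.36 and 3.16 and none passed the test.

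In the edgeR fit without a block, the genes nearest to a difference were low or rested on few libraries. The fit with the library number as a block was not used to choose them. *hoxc4a* in HECs had 0, 0 and 1.61 CPM in mutants against 3.19, 6.77 and 1.34 CPM in siblings (log2 fold change -2.58, SE 1.42, unadjusted *P*=0.0896). *hoxa11a*, used in the fin and posterior trunk, had 5.02 and 10.4 CPM in mutant HSPCs against 0 and 1.61 CPM in sibling HSPCs (log2 fold change 3.12, SE 1.60, unadjusted *P*=0.0706). *hoxc5a* had 1.97 and 0.871 CPM in mutant HSPCs against 15.0 and 13.8 CPM in sibling HSPCs (log2 fold change -3.36, SE 1.77, unadjusted *P*=0.0787). In both HSPC cases the 2 genotypes did not overlap, and in all 2 of 46 Hox genes lay above siblings in this way (all genes, 11.4%) and 5 of 46 below (all genes, 9.35%). In HECs 1 of 46 lay above, *hoxb7a* (all genes, 2.35%), and 0 below (2.47%), and in ECs 0 lay above (3.64%) and 0 below (2.7%). In ECs, *hoxc8a* had 28.0, 9.3 and 107 CPM in mutants against 18.6, 15.7 and 34.1 CPM in siblings (log2 fold change 1.08, SE 0.78, unadjusted *P*=0.186), an excess carried by 1 mutant library. In the edgeR fit without a block, differences of the genotype effect between cell types were called for 0 Hox genes, and 0 had an unadjusted *P*-value under 0.05. Of all genes, 1.07% were higher and 2.55% lower at that level for HECs against ECs, 1.4% and 0.836% for HSPCs against HECs, and 1.15% and 1.21% for HSPCs against ECs. DESeq2 called 0 Hox genes in these differences as well, against 0.107%, 0.0673% and 0.055% of all genes. At the unadjusted level it gave 1 lower for HECs against ECs (625 of 32705 genes) and 1 lower for HSPCs against ECs (366 of 32705 genes). With the library number as a block, edgeR gave 1 lower for HSPCs against HECs (273 of 21161 genes) and 2 lower for HSPCs against ECs (342 of 21161 genes).

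Besides *hoxb3a* and *hoxc3a*, the genes of highest mean CPM were *hoxd9a*, *hoxa9b*, *hoxa11b* and *hoxa3a*. *hoxd9a*, used in the posterior trunk, had 40.6, 31.4 and 167 CPM in mutant ECs against 41.6, 22.1 and 92.9 CPM in sibling ECs. In HECs it had 43.9, 42.6 and 23.4 CPM in mutants and 47.2, 43.2 and 39.7 CPM in siblings, the mutant library being the lower one of each pair. HSPCs had 10.7 and 108 CPM in mutants and 10.96 and 85.4 CPM in siblings. *hoxa9b*, a co-orthologue of the mammalian gene that drives leukaemia, had 43.7 and 181 CPM in mutant HSPCs and 17.0 and 179.7 CPM in sibling HSPCs, and its HEC libraries lay between 10.6 and 24.6 CPM. *hoxa11b*, a fin gene, had 46.6, 42.6 and 46.3 CPM in mutant HECs and 53.0, 36.6 and 25.2 CPM in sibling HECs. *hoxa3a* had 63.5, 67.5 and 53.5 CPM in mutant ECs and 75.4, 52.6 and 20.1 CPM in sibling ECs. Its HSPC libraries had 4.37 and 44.1 CPM in mutants and 17.0 and 26.2 CPM in siblings.

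Genes that act with or upstream of Hox genes were examined as 4 lists. At most 5.38% of all genes were called in any of the 12 comparisons, and 0% in the genotype comparisons and their differences. The TALE cofactors (Pbx, Meis and Pknox homeodomain proteins, which bind DNA together with Hox proteins) had 14 of 14 members tested, and 1 was called in 1 comparison, in which 2.07% of all genes were called. This was *meis3*, with 76.0 and 217 CPM in mutant HSPCs against 6.75, 4.60 and 5.30 CPM in mutant HECs (log2 fold change 4.72, SE 1.03, adjusted *P*=0.0318). In siblings, where it was not called, *meis3* was also higher, with 39.5 and 143 CPM in HSPCs against 1.74, 13.5 and 1.19 CPM in HECs. The median log2 fold change of the list was -1.38 in mutants and -0.61 in siblings for HECs against ECs, and it was 1.34 in mutants and 0.88 in siblings for HSPCs against HECs, where the medians over all genes lay between 0.00 and 0.09. The Cdx and Evx list, of regulators and neighbours of the clusters, had 3 of 5 members tested and 0 called. Its gene *evx2*, which lies beside *hoxda* and marks spinal interneurons, had 0 and 95.7 CPM in mutant HSPCs and 41.0 and 30.5 CPM in sibling HSPCs, and at most 7.38 CPM in any other library.

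Retinoic acid switches on anterior Hox genes, and 14 of 15 genes of its synthesis, breakdown and receptors were tested. The synthesis gene *aldh1a2* had 0 counts in all libraries and was not tested. *aldh1a3* had 280 counts in mutant and 195 in sibling HSPCs numbered 2, and at most 32 in any other library. The enzyme *cyp26b1*, which degrades retinoic acid, fell in sibling HSPCs, with 0 and 0.085 CPM against 62.8, 125 and 269 CPM in sibling ECs (adjusted *P*=0.00109) and 13.3, 56.2 and 74.5 CPM in sibling HECs (adjusted *P*=0.00825). In mutant HSPCs it had 20.1 and 1.52 CPM against 69.2, 147 and 235 CPM in mutant ECs and was not called. The receptor *raraa* fell in HSPCs relative to ECs in both genotypes, with log2 fold changes of -1.80 in mutants (SE 0.41, adjusted *P*=0.0256) and -1.85 in siblings (SE 0.41, adjusted *P*=0.0171). Its partner *rxraa* fell in sibling HSPCs relative to sibling ECs (log2 fold change -2.63, SE 0.55, adjusted *P*=0.012). Of the trithorax and Menin genes, whose complexes keep Hox genes active, 13 of 13 were tested and 0 were called in the 12 comparisons, where between 0% and 5.38% of all genes were called.

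Counts of some members are uncertain. In the RefSeq annotation of GRCz12tu, in which all 49 genes were found, the spans of 18 overlapped that of another member, since long transcripts of *hoxa3a*, *hoxb3a*, *hoxc3a*, *hoxd3a* and *hoxb1b* run across their neighbours. The counts were made on another build, GRCz11, and the strand setting is not stated, so reads could have been divided between such genes or left out. All 4 *hoxbb* genes, and no other Hox gene, had a second entry of the same name in the count table, which was at 0 in all libraries. Of 5942 genes with such a second entry, 49.6% passed the filter on low counts, against 45.8% of the 35164 genes without one. Of the *hoxbb* genes, 1 of 4 passed, and the part of the second entries in this was not tested.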

How the data were processed

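The members, gene lists and tests were chosen with earlier results of these data known. Per the labels and the methods of the study, reads were trimmed with cutadapt, aligned to GRCz11 with HISAT2 (2.2.1) and counted with HTSeq (0.12.4). The annotation and the strand setting are not given in the sources used here. The labels describe a tagged single-cell protocol and the methods a low-input bulk one. The authors deposited raw counts per gene in 1 table of 16 libraries. Its 5 entries that name no gene, 45.8% of reads, were left out, which left between 3125048 and 13201410 counts per library (median 4563344). Deposited fold changes were not used, and methylation regions at the Hox clusters were not analysed here.

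All 16 libraries entered one edgeR (4.0.16) quasi-likelihood fit with TMM scaling and filterByExpr (R 4.3.3), with Benjamini-Hochberg adjustment over 21161 genes. Calls combined an adjusted *P*-value below 0.05 with a log2 fold change of 1 or more in either direction. Each SE given was worked back from the edgeR test, as the size of the log2 fold change over the square root of its *F* statistic. It is approximate, above all for genes at 0 counts in a group. The edgeR fit was also run on simulated counts, which held no effect of library number and so do not show its power on these libraries. Alternatives were DESeq2 (1.42.0), other scaling and filters, each library left out, a block on library number and, added later, no libraries numbered 3. For genotype comparisons and their differences, the block held a separate effect of each number in each cell type. For comparisons between cell types, it held 1 effect of each number shared by all cell types. Libraries sharing a number deviated together (correlations from 0.109 to 0.278 across cell types and from 0.218 to 0.507 between genotypes of a cell type). For libraries of different numbers these ranged from -0.263 to 0.108 and from -0.5 to 0.0776. The labels do not say whether a number stands for a shared sort, and the main fit had no block. Named genes were those called, the 3 with the smallest *P*-value in each comparison, the 6 of highest mean CPM and those detected in no group. Others, such as *hoxb1b*, *hoxc1a*, *hoxc6b*, *hoxc13a* and *hoxd12a*, were named after their values were seen. Detection needed 10 counts in 2 libraries.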

Additional observations from a re-analysis of the deposited data

How the results depend on the processing

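The numbers of Hox genes called in the genotype comparisons and in the differences between them were 0 under every alternative run. For comparisons between cell types, DESeq2 at an adjusted *P*-value under 0.05 called 4 Hox genes in mutant HECs against ECs, 4 in mutant and 3 in sibling HSPCs against HECs, and 2 in mutant and 2 in sibling HSPCs against ECs. At the looser limit of 0.5 from the study's methods, DESeq2 called 18 in mutant and 14 in sibling HECs against ECs, 14 in mutant and 14 in sibling HSPCs against HECs, and 7 in mutant and 17 in sibling HSPCs against ECs. The call of *hoxa1a* in mutant HSPCs against ECs was lost without either mutant HSPC library, so that leaving out 1 library gave between 0 and 1 genes. With the library number as a block, the count was 1 for mutant HSPCs against ECs (*hoxa1a*, adjusted *P*=0.00978 by edgeR) and 0 in all other comparisons, so the block changed no Hox call.

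Of 558 alternative values for 36 named fold changes, 523 kept their direction and side of the threshold, 28 passed it where the reported value had not, 2 no longer passed it and 5 reversed. The reversed values were all of genes that did not pass the test. Leaving out 1 library at a time, the log2 fold change between mutants and siblings in ECs lay between -3.37 (without EC mutant 1) and 6.54 for *hoxa13b*, between -0.29 (without EC mutant 3) and 1.56 for *hoxc8a* and between -0.047 (without EC mutant 3) and 1.31 for *hoxc9a*. In HECs it lay between -0.047 (without HEC mutant 1) and 1.64 for *hoxb6a*. The difference between HECs and ECs in the genotype effect of *hoxc1a* lay between -8.51 and 2.23 (without HEC sibling 2). *hoxb13a* gave no value for sibling HSPCs against ECs without HSPC sibling 3, since both groups were then at 0. Detection counts stayed within 1.5 times the reported ones. A minimum of 20 counts gave 37 and 32 genes in mutant and sibling ECs, 37 and 34 in HECs and 29 and 27 in HSPCs.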
